A study of Bos taurus with 72 samples.

Results

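The genes described here are 62 blood transcripts of beef cattle that stood higher at close-out, the last of 3 samplings, than at both earlier ones. They were chosen by measured values. Of the 24616 genes in the count table, 12627 passed the filter on low counts, and 10356 of those had a mean of at least 1 on the scale used throughout, log2 CPM (counts scaled to the size of each library). A member had mean paired differences of at least 0.7 log2 CPM for both close-out minus entry and close-out minus pulled, with a mean pulled minus entry difference under 0.7 in size. Since these 3 differences chose the members, they are given below as a description. Where calls of a test on them are printed, they stand beside the share over all tested genes and nothing is read from them. A further 65 genes met the conditions on the differences at a mean level below 1 and were not members, and 13 more were left out because their pulled minus entry difference was 0.7 or larger in size.

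Whole blood was taken from the same 24 male beef cattle at 3 stages, labelled entry, pulled and close-out, with 1 library per animal and stage. All groups share the tissue, the sex and the library type, and the labels name no treatment, breed, age or diagnosis for any animal. The series title concerns bovine respiratory disease, the pneumonia complex of newly received feedlot cattle. In feedlot usage, cattle enter after transport and mixing, an animal is pulled when it is taken from its pen for examination or treatment, and close-out ends the feeding period. Stage cannot be told apart from age and time on feed, because no cattle sampled at matched times without being pulled were analysed here.

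Whole blood RNA is a mixture of the transcripts of neutrophils, lymphocytes, monocytes, other white cells, platelets and young red cells. A transcript can therefore be higher at 1 stage because the cells that carry it make up more of the blood or because each of them holds more of it. In bulk libraries such as these, a change in the number of cells and a change in RNA per cell cannot be told apart. The count table lists Ensembl gene identifiers without symbols, and 0 of the 24616 identifiers matched the gene table at hand, which belongs to the assembly ARS-UCD2.0. No function, sequence, chromosome or cell type is therefore given for any member, the blood label was not checked against marker genes, and identifiers are printed for only 2 members.

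Over the 72 libraries, total counts ranged from 8.24 M to 29.1 M. In the 22 animals used, the entry libraries averaged 17.9 ± 4.49 M counts, the pulled libraries 17.0 ± 4.05 M and the close-out libraries 17.1 ± 4.39 M (SD, n = 22). The number of genes with a count averaged 15394 ± 431 in entry libraries, 15082 ± 331 in pulled and 15332 ± 260 in close-out libraries. The TMM scaling factor averaged 1.04 ± 0.159, 0.951 ± 0.097 and 1.04 ± 0.146 in the same order of stages. Nothing in the labels gives a sequencing batch or date.

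The libraries labelled pulled of animals 9 and 12 went against their labels, and the rule left both animals out, which kept 66 libraries of 22 animals. Over 100 genes with large and lasting differences between animals, libraries of the same animal correlated at 0.812 or more among the other 70 libraries, and libraries of different animals at 0.471 or less (across genes, which are not independent replicates). Genes with differences that last within an animal favour high same-animal values, so that gap is in part built in by their choice. For animal 9, the correlation of the library labelled pulled was -0.06 with its own entry library and 0.974 with the entry library of animal 11. Its counts differed from that entry library by a chi-square of 1.46 per degree of freedom, against 29.1 for the next closest of 2556 pairs. For animal 12, that correlation was 0.174 with its own entry library and no higher than 0.241 with any library. Entry and close-out of animal 9 correlated at 0.89, and those of animal 12 at 0.964.

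ENSBTAG00000046188 had the largest difference by the smaller of its 2 mean differences. Its scaled level ran from 0.178 to 11.4 CPM at entry (median 1.39), from 0.297 to 15.8 CPM at pulled (median 1.77) and from 4.11 to 20.3 CPM at close-out (median 7.41), with 22 libraries per stage. At close-out every library lay above 18 of the 22 entry libraries and above 21 of the 22 pulled libraries, while 5 close-out libraries exceeded the highest entry library. Mean levels were 0.86 ± 1.34 log2 CPM in the entry libraries, 0.73 ± 1.3 in the pulled and 2.99 ± 0.59 in the close-out libraries (SD, n = 22). The mean paired difference was 2.13 ± 1.25 for close-out minus entry and 2.26 ± 1.47 for close-out minus pulled (SD over 22 animals), a 4.38-fold and a 4.79-fold difference. It was positive in 21 of 22 animals in each comparison.

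ENSBTAG00000037578 came second by the same measure and varied more between animals at the earlier stages. It ran from 0.0395 to 51.6 CPM at entry (median 6.12), from 0.447 to 30.9 CPM at pulled (median 4.37) and from 9.23 to 88.8 CPM at close-out (median 22.6). The groups overlapped, since only 15 of the 22 entry libraries and 16 of the 22 pulled libraries lay below the lowest close-out library. Mean paired differences were 2.03 ± 1.45 for close-out minus entry and 2.42 ± 1.93 for close-out minus pulled (SD, n = 22), positive in 20 of 22 animals in each. The lowest entry library, from animal 16, held 1 count of this gene, so that value is known only to within counting error, while close-out libraries held 110 to 1476 counts.

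**Figure D1:**
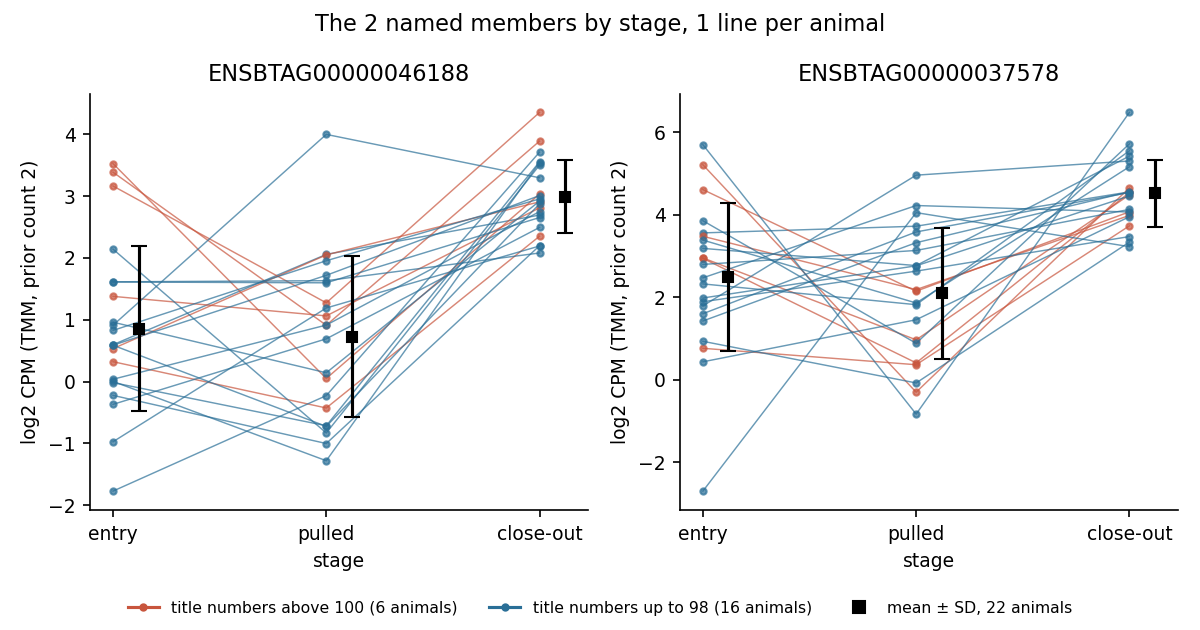
Level of the 2 named members (y axis, log2 CPM) at entry, pulled and close-out (x axis), with 1 line per animal (orange for the 6 animals numbered above 100 in their titles, blue for the 16 numbered up to 98) and black squares for the mean ± SD of 22 animals. Both genes spread widely at entry and pulled and lie in a narrower, higher band at close-out, from 2.08 to 4.35 for ENSBTAG00000046188 and from 3.22 to 6.47 for ENSBTAG00000037578.

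Most members were less abundant than the typical tested gene. Their mean level ran from 1.09 to 10.3 log2 CPM with a median of 2.81, against a median of 3.84 over all 12627 tested genes. The median member had 125 counts in the median library, and none of the 62 had a library without a count. Together the members took 0.269% ± 0.153 of the counts of entry libraries, 0.265% ± 0.282 of pulled and 0.45% ± 0.197 of close-out libraries (SD, n = 22). A single member accounted for much of that share, and without it entry libraries gave the members 0.106% ± 0.0202, pulled libraries 0.0885% ± 0.0245 and close-out libraries 0.211% ± 0.0708.

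That most abundant member was among the least regular. It ran from 148 to 8450 CPM at entry (median 991), from 103 to 14400 CPM at pulled (median 863) and from 522 to 10300 CPM at close-out (median 1820). Its highest library was from animal 2 at entry, from animal 22 at pulled and from animal 3 at close-out, and the 3 stages overlapped over most of their range. Mean paired differences of 0.78 ± 1.84 for close-out minus entry and 0.84 ± 1.69 for close-out minus pulled (SD, n = 22) were smaller than their spread between animals, with 14 and 16 of 22 animals higher at close-out.

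Across the members, mean close-out minus entry ran from 0.70 to 2.13 log2 CPM with a median of 0.93, and 25 members reached 1. Close-out minus pulled ran from 0.70 to 2.42 with a median of 1.01, and 32 members reached 1. Pulled minus entry lay between -0.66 and 0.65 with a median of -0.13, and it was negative in 42 of the 62. In the edgeR model with the animal as a block, 58 members were called higher at close-out than at entry, where 9.35% of all tested genes were, and 60 were called higher at close-out than at pulled, where 13.1% of all tested genes were (adjusted p under 0.05). These comparisons chose the members, so nothing is read from the shares. For pulled against entry, which the rule kept small, 4 members were called higher and 5 lower, against 17.5% and 24.1% of all tested genes.

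**Figure D2:**
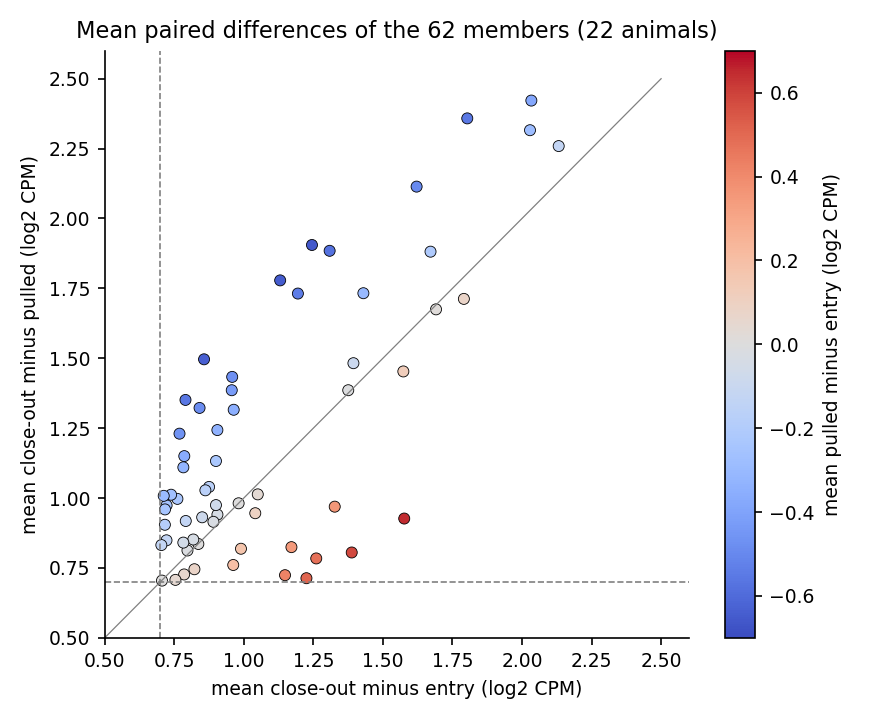
Mean paired difference of each of the 62 members over 22 animals, close-out minus entry on the x axis and close-out minus pulled on the y axis (log2 CPM), coloured by pulled minus entry. Dashed lines mark the 0.7 threshold that chose the members, the solid line marks equal values, and 42 of the 62 are in the blue range, with a lower mean at pulled than at entry.

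The threshold did not fall at a gap. The 3 members nearest to it had smaller differences of 0.707, 0.705 and 0.704, and the 3 nearest genes outside it had 0.680, 0.678 and 0.676. Leaving out any 1 animal gave between 55 and 64 members. Of the 62, 40 stayed under every such omission and 22 dropped out under at least 1.

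Few members separated the stages library by library. In every animal, 8 of the 62 were higher at close-out than at entry, where 0.317% of all tested genes were, and 8 were higher at close-out than at pulled, where 0.491% were. No member had all 22 close-out libraries above all 22 entry libraries (0.00792% of all tested genes did), while 2 members had all close-out libraries above all pulled libraries. Those 2 were the only such genes among the 12627 tested, a share of 0.0158%. The first ran from 1.86 to 3.58 log2 CPM at close-out, from -0.22 to 1.73 at pulled and from -0.28 to 1.98 at entry. The second ran from 1.60 to 3.53 at close-out, from -0.34 to 1.26 at pulled and from -0.15 to 2.17 at entry. Both were low in abundance, with at least 47 and 34 counts in a close-out library and at most 50 and 36 in a pulled library.

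Animals 9 and 12 were not used by the rule, so they give values of close-out minus entry that did not choose the members. Their entry and close-out libraries correlated at 0.89 and 0.964 over the 100 genes described above, whose choice favours such values. In animal 9, 55 of the 62 members were higher at close-out than at entry, where 50.8% of all tested genes were. In animal 12, 59 of the 62 were higher, where 49.0% of all tested genes were. In both animals 53 members were higher, against 23.0% of all tested genes. The median member difference was 0.72 in animal 9 and 0.89 in animal 12, against medians of 0.01 and -0.01 over all tested genes, and 32 and 35 members reached 0.7, where 5.81% and 7.70% of all tested genes did. With 2 animals no test of these differences was made. Both animals have title numbers up to 98, so these values say nothing about animals numbered above 100. In the 22 animals that chose the members, the median member close-out minus entry was 0.78 in those above 100 and 1.06 in those up to 98.

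Both named members were higher at close-out in both animals. ENSBTAG00000046188 had 3.95 CPM at close-out and 2.19 CPM at entry in animal 9, and 7.08 CPM at close-out and 0.897 CPM at entry in animal 12. ENSBTAG00000037578 had 28.2 CPM at close-out and 8.61 CPM at entry in animal 9, and 20.9 CPM at close-out and 7.99 CPM at entry in animal 12. The 2 members that separated close-out from pulled had close-out minus entry differences of 2.45 and 1.07 in animal 9 and of 0.89 and 1.12 in animal 12.

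**Figure D3:**
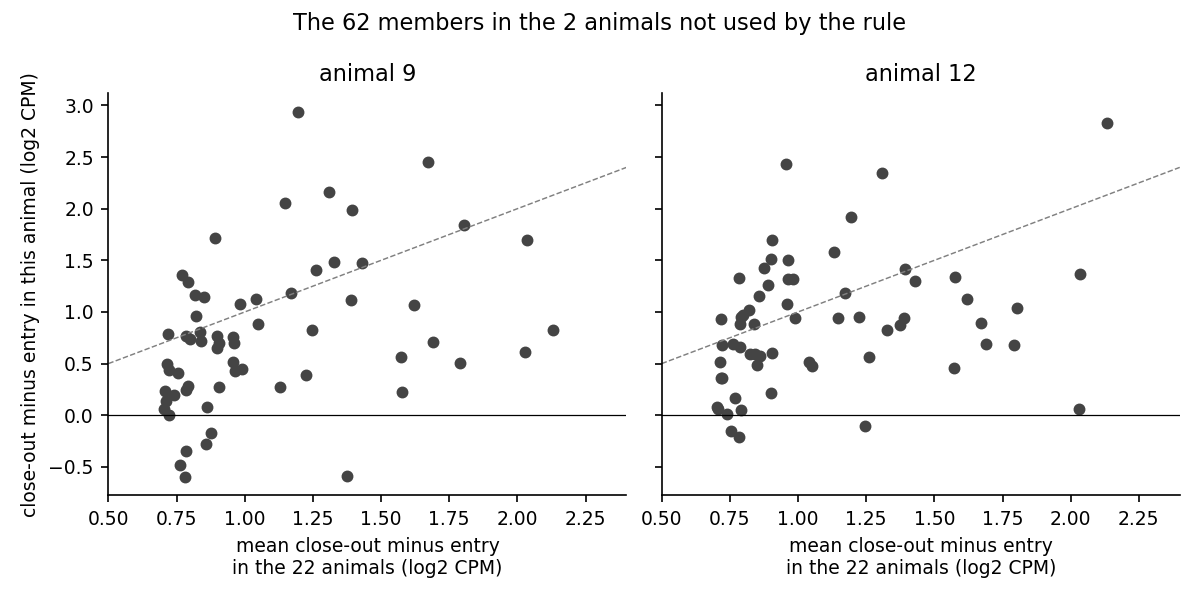
Close-out minus entry of each of the 62 members (y axis, log2 CPM) in animal 9 (left) and animal 12 (right), which did not enter the rule, against the mean of the 22 animals that did (x axis). Points above the line at 0 are higher at close-out, 55 in animal 9 and 59 in animal 12, and the dashed line marks equal values.

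The animals differed in how far the members stood above each earlier stage. The median over members of close-out minus entry was positive in 22 of 22 animals, from 0.26 in animal 3 to 1.53 in animal 17. For close-out minus pulled the median ran from 0.16 in animal 16 to 1.89 in animal 19. In animals 16 and 22 the members were already high at pulled, with median pulled minus entry values of 0.77 and 0.73. There 36 and 44 of the 62 were higher at close-out than at pulled, where 54.6% and 52.1% of all tested genes were. A high level at pulled and a low count did not always go together. Animal 10 had 39 members higher, where 49.4% of all tested genes were, at a median pulled minus entry of 0.13. Animal 14 had 62, where 50.4% of all tested genes were higher, at 0.60. Both differences use the pulled library, so a link between them is in part built in. Unlike animals 16 and 22, animal 19 had a median pulled minus entry of -0.99. The small mean of pulled minus entry that defines the members therefore held over the group of animals and not in each animal, where its median ran from -0.99 to 0.77.

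**Figure D4:**
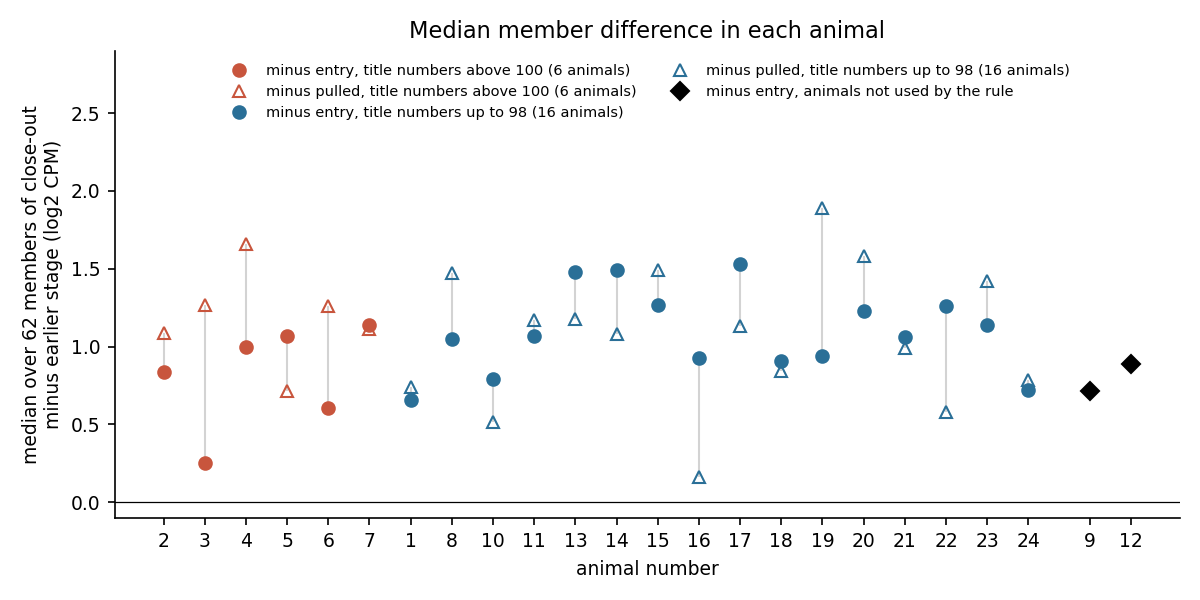
Median over the 62 members of close-out minus entry (filled circles) and close-out minus pulled (open triangles) in each animal, in log2 CPM, with orange for the 6 animals numbered above 100 in their titles and blue for the 16 numbered up to 98. Black diamonds give close-out minus entry in animals 9 and 12, which were not used by the rule, at 0.72 and 0.89. Both of these animals also have numbers up to 98.

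The animals also fell into sets at entry. Of the 22, 6 had title numbers above 100 and 16 had numbers up to 98, a division that earlier results of these data had shown in the entry libraries and that is not a group of the study. It may be a batch or a state of the animals, which cannot be told apart from the labels. At entry, 18 members were called higher in the 6 animals than in the 16 and 8 lower, against 32.7% and 37.9% of all tested genes (edgeR, adjusted p under 0.05, fitted within the stage). At close-out 0 members were called higher, where 0.0396% of all tested genes were, and 0 lower, where 0% were, and 4 members and 9.29% of all tested genes had an unadjusted p under 0.05. The median difference of the 6 minus the 16 over members was 0.40 for the entry libraries, -0.19 for the pulled and 0.13 for the close-out libraries.

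All 62 members had a positive mean close-out minus pulled in both sets, and 58 a positive mean close-out minus entry in both. Close-out minus pulled ran from 0.36 to 3.28 log2 CPM in the 6 animals (median 1.17) and from 0.61 to 2.24 in the 16 animals (median 1.01). Close-out minus entry ran from -0.48 to 3.33 in the 6 animals (median 0.78), with 58 members positive, and from 0.11 to 2.49 in the 16 animals (median 1.06). The edgeR test of the difference between sets found 17 members for close-out minus entry, against 66.2% of all tested genes (adjusted p under 0.05). Of the 17, 7 (11.3% of the 62) rose further in the 6 animals, against a call in that direction in 36.4% of all tested genes. The other 10 (16.1% of the 62) rose less or fell there, against a call in that direction in 29.8%. The rule asked for a rise on average over both sets, so the choice of members bears on all these counts and shares. Nothing is read from them.

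For close-out minus pulled the same test called 0 members and 0% of all tested genes in edgeR, with 5 members and 3.09% of all tested genes at an unadjusted p under 0.05. In limma-voom it also called 0 genes, with 360 of 12627 and 6 members at an unadjusted p under 0.05. A difference that misses the threshold with 6 animals in 1 set does not show that the sets acted alike. For pulled minus entry the sets differed in 27 members, against 70.5% of all tested genes (edgeR, adjusted p under 0.05), and the median over members was -0.58 in the 6 animals and 0.01 in the 16.

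For the named members the values in the sets are a description, since close-out minus entry chose them. For ENSBTAG00000046188, close-out minus entry was 1.17 ± 1.04 in the 6 animals and 2.49 ± 1.15 in the 16 (SD), a fitted difference of -1.59 (SE 0.66), with 5 of 6 and 16 of 16 animals higher at close-out. At entry it averaged 2.05 ± 1.48 log2 CPM in the 6 animals and 0.41 ± 1.00 in the 16, and at close-out 3.22 ± 0.75 in the 6 and 2.9 ± 0.52 in the 16. For ENSBTAG00000037578 the fitted difference was -1.39 (SE 0.82).

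**Figure D5:**
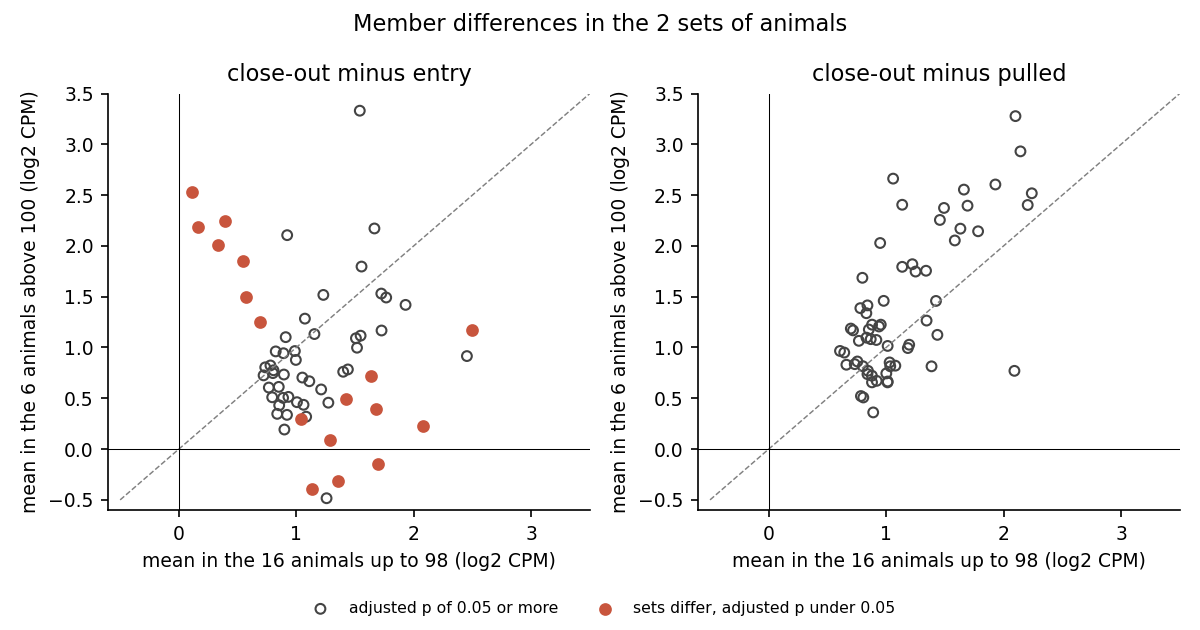
Mean difference of each of the 62 members in the 6 animals with title numbers above 100 (y axis) against the 16 animals with numbers up to 98 (x axis), in log2 CPM, for close-out minus entry (left) and close-out minus pulled (right). Filled points on the left are the 17 members whose close-out minus entry differed between the sets (edgeR adjusted p under 0.05), 7 above and 10 below the dashed line of equal values, while on the right all 62 are above 0 in both sets. The same animals chose the members, so these positions are a description.

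Applying the rule in 1 set and reading the chosen genes in the other gave values that the choice had not used. In the 16 animals alone the rule found 61 genes, 47 of them among the 62 members. Read in the 6 animals, 50 of these 61 had a mean close-out minus pulled of at least 0.7, where 4.75% of all tested genes did, and 61 of 61 were positive, against 51.5% of all tested genes. For close-out minus entry 32 of the 61 reached 0.7 in the 6 animals, where 22.7% of all tested genes did, and 54 (88.5%) were positive, against 54.7% of all tested genes. Their median in the 6 animals was 1.22 for close-out minus pulled and 0.73 for close-out minus entry. Their median pulled minus entry there was -0.76, outside the bound of 0.7 that had chosen them in the 16 animals, with 11 of the 61 positive and a median of 0.06 over all tested genes.

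In the 6 animals alone the rule found 69 genes, of which only 13 were among the 62 members. Read in the 16 animals, 52 of these 69 had a mean close-out minus pulled of at least 0.7, where 4.13% of all tested genes did, with a median of 0.86. For close-out minus entry only 16 of the 69 reached 0.7 in the 16 animals, where 4.51% of all tested genes did, and the median was 0.09. For that difference 37 of the 69 (53.6%) were positive, close to the 47.7% of all tested genes. Their median pulled minus entry in the 16 animals was -0.84, again outside the bound, with 11 of the 69 positive and a median of -0.06 over all tested genes. The rule found 9 genes in both sets on their own. Most of the genes chosen in 1 set thus had the difference from pulled in the other animals as well, fewer had the difference from entry, and in the median the small pulled minus entry difference was not found there. The sets were known to stand apart at entry. Over all tested genes they differed in 66.2% for close-out minus entry, 70.5% for pulled minus entry and 0% for close-out minus pulled (edgeR, adjusted p under 0.05). What carried over is therefore a description of this division, and nothing about the chosen genes is read from it.

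Members varied between animals at every stage. In the 22 animals, the median SD over members was 0.81 log2 CPM for entry libraries, 0.83 for pulled and 0.69 for close-out, against medians of 0.50, 0.41 and 0.38 over the 10356 tested genes with a level of at least 1. Within the 16 animals, where the entry libraries formed 1 set, the members had medians of 0.76, 0.72 and 0.66, and all those genes 0.32, 0.36 and 0.39. In the 22 animals the SD was larger at close-out than at entry in 16 of the 62 members (25.8%) and in 18.2% of the 10356 genes. Within the 16 animals the order was the other way, with 24 of the 62 members (38.7%) and 70.7% of the 10356 genes. Members were both less abundant than most tested genes and higher at close-out by choice, and the part of level and counting error in these spreads was not tested.

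At close-out the SD between animals ran from 0.23 to 1.41 log2 CPM over members. The least variable member had a mean level of 6.25 and lay between 6.34 and 7.20 in all 22 close-out libraries. Its mean differences of 0.80 ± 0.34 for close-out minus entry and 0.81 ± 0.50 for close-out minus pulled (SD, n = 22) were small but held in 22 and 20 of 22 animals. The most variable member had a mean level of 1.53 and ran from 1.04 to 6.99 at close-out, with mean differences of 2.03 ± 1.75 and 2.32 ± 1.85. It was higher at close-out than at entry in 20 and than at pulled in 18 of 22 animals.

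The members did not vary together as 1 unit across animals. Over all pairs of members, the median correlation across the 22 close-out libraries was 0.19, against a median of -0.01 for pairs of the 10356 tested genes with a level of at least 1. Correlations above 0.5 made up 14.3% of member pairs and 17.6% of pairs of those genes. All such values share the libraries and their scaling, and they are a description with no test. Grouping members by their correlation at close-out, with an average-linkage cut at 0.6, gave 11 groups, of which 3 held at least 5 genes, with 18, 15 and 7 members.

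Since the close-out libraries made these groups, only the other stages show whether they repeat, in the same animals. At pulled the median pair correlation was 0.44 in the group of 18, 0.27 in the group of 15 and 0.16 in the group of 7, against 0.18 for pairs from different groups (22 animals). At entry, within the 16 animals, these values were 0.40, 0.49 and 0.30, against 0.13 for pairs from different groups. The group of 7 was therefore no tighter at pulled than pairs from different groups. ENSBTAG00000046188 belonged to the group of 15, and ENSBTAG00000037578 and the most abundant member to none of the 3.

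The mean level of the group of 18 ran from 1.38 to 3.27 log2 CPM at entry, from 1.04 to 3.72 at pulled and from 2.69 to 4.86 at close-out, highest in animals 2, 22 and 10 at those stages. For the group of 15 it ran from 1.41 to 3.65 at entry, from 1.57 to 3.32 at pulled and from 2.81 to 5.05 at close-out, highest in animals 2, 10 and 2. Animal 10 thus had the highest level of the group of 18 and the lowest of the group of 15 at close-out. The group of 7 was also lowest in animal 10 at close-out, at 2.76, where its highest level was 4.69 in animal 20. In the group of 18, 17 members had a smaller mean close-out minus entry in the 6 animals than in the 16, with medians of 0.60 and 1.28. In the group of 15, 10 members did, with medians of 0.94 and 1.05, as did 15 of the 22 members in none of the 3 groups. In the group of 7 only 1 member did, with medians of 1.25 in the 6 animals and 0.92 in the 16. Over all 62 members, 19 had a larger value in the 6 animals. The median of the 6 minus the 16 was -0.365 over members and 0.0822 over all tested genes. The share of all tested genes with a larger value in the 6 animals was not counted. Close-out minus entry chose the members, so these values are a description.

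The order of the animals was kept between stages to about the same extent as in other genes in the median. Spearman's rho between pulled and close-out across the 22 animals had a median of 0.23 over members, from -0.46 to 0.90, and of 0.17 over the 10356 tested genes with a level of at least 1. It exceeded 0.5 in 15 of the 62 (24.2%), against 11.2% of those genes. Between entry and close-out within the 16 animals the median was 0.37 over members and 0.32 over those genes, and 16 of the 62 (25.8%) exceeded 0.5, against 18.5% of those genes. These are descriptions of many correlations at once, with no test.

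By the mirrored rule, 101 genes were lower at close-out than at both earlier stages, against the 62 that were higher. In the animals not used by the rule, 94 of the 101 were lower at close-out than at entry in animal 9, where 49.2% of all tested genes were, and 82 of the 101 in animal 12, where 51.0% were. The median member difference in those animals was thus 0.72 and 0.89 for the raised genes, beside falls of 0.95 and 0.47 for the lowered ones. Both animals have title numbers up to 98, so this gives no value for animals numbered above 100.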

How the data were processed

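Per the labels' protocols, whole blood was kept in PAXgene tubes, samples were chosen for RNA integrity, and TruSeq libraries were built from poly-A RNA. The authors deposited raw read counts for each Ensembl gene and library. The submitters' processing notes name TopHat2, HTSeq and the build UMD3.1. Tool versions, annotation and strand setting were not given in the sources used here, so overlapping or near-identical genes may share reads. All columns matched a sample (0 did not).

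Counts were analysed in R 4.3.3 with edgeR 4.0.16 on 66 libraries of 22 animals: low-count filter by stage, TMM scaling, log2 CPM with a prior count of 2. One quasi-likelihood model had stage as a factor and animal as a block, and a second added the stage by set terms. Benjamini-Hochberg adjustment over all 12627 tested genes used a threshold of 0.05. The pairing comes from the animal numbers in the labels. The lowest same-animal correlation was 0.812, over genes whose choice favours such values, so it is a limited check. Animals 9 and 12 were scaled together with all 72 libraries over the same genes. A standard error is the size of the log2 fold change over the root of its F statistic. The labels make the 22 animals separate animals. DESeq2 1.42.0 and limma-voom (limma 3.58.1) were alternatives. The scripts were tested on simulated data. The 2 printed members are those with the largest smaller-of-the-2 mean differences. The members, the sets and the lists were chosen with earlier results of these data known. Gene lists and promoter motifs could not be computed without gene names.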

Additional observations from a re-analysis of the deposited data

Results flagged for a closer look

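The 2 results below were picked out because the change from entry to close-out was not the same in the 6 animals numbered above 100 in their titles as in the 16 numbered lower (edgeR test of the difference, adjusted p under 0.05). Close-out minus entry also chose the members, so both are given as descriptions and nothing is read from the calls. One was ENSBTAG00000046188, with a fitted difference of -1.59 on the log2 scale (SE 0.66). The other was the count of 17 members, among 62, whose change differed, beside 66.2% of all tested genes. The sets were known from earlier results to stand apart at entry, and whether a batch or the state of the animals moved with these members was not tested. Groups of 22 libraries are too large for the check on single outlying samples, so none was made.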

How the results depend on the processing

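The 62 members became 128 (52 shared) at a difference threshold of 0.5 and 22 (17 shared) at 1, where the bound on pulled minus entry moves as well. Under the other alternatives the count lay between 56 and 74, and 55 to 64 when 1 animal was left out. With all 24 animals 51 of 56 genes were shared with the 62, with medians 45 of 56, with library totals only 59 of 74, and with the filter and scaling on all 72 libraries, an alternative chosen after seeing the data, 59 of 61.

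For close-out against entry, 1180 genes were higher and 1404 lower. Only the animals with numbers up to 98 gave 3777 and 4542, only those above 100 gave 2567 and 2423, an adjusted p of 0.01 gave 660 and 496, and library totals only left 880 lower. For close-out against pulled, 1659 were higher and 1481 lower. The animals above 100 gave 142 and 172, an adjusted p of 0.01 gave 1032 and 846, and library totals only left 817 lower. For pulled against entry, 2210 were higher and 3049 lower. The animals up to 98 gave 4165 and 4989, an adjusted p of 0.01 gave 1289 and 1610, and the libraries of those 2 stages alone gave 1641 lower. A stricter threshold lowers the counts by construction. In a single set of animals counts rose in some comparisons and fell in others, although each set held fewer animals. The cause of these and the other changes was not tested.

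Library totals only moved the share of higher genes among those called to 62.7% against 45.7% with TMM for close-out against entry, to 75.2% against 52.8% for close-out against pulled, and to 28.1% against 42.0% for pulled against entry. Over all genes the median fold change was then 0.13 (log2) for close-out against pulled and -0.19 for pulled against entry. Without the replicate block 878 genes were higher at close-out than at entry and 1462 than at pulled, and 54 and 57 members were called in place of 58 and 60. Within the animals above 100, 29 and 30 members were called higher, beside 2567 and 142 of the 12439 genes tested there. These comparisons chose the members, so nothing is read from the counts. For pulled against entry, 4 members were called higher and 5 lower, beside 2210 and 3049 of 12627 tested genes. Library totals only called 2 and 13 members, beside 1616 and 4139 of 12627 genes. The animals above 100 called 6 and 19 members, beside 2699 and 2443 of 12439 genes. The rule kept this difference small in the members, so nothing is read from these counts.

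None of the 124 recomputed fold changes of the 2 named members reversed or lost its side of the threshold, or moved by 1 SD or more. Most of them left out 1 of the 22 animals, which cannot move these means by 1 SD or reverse them. That count is therefore no test of the values. The 17 members that differed between the sets were 12 to 20, and members higher in animals 9 and 12 were 56 and 58 with RLE and 57 and 52 with library totals only. Alternatives for promoter motifs were not run. Counts of 1 to 3 in a library limit the lowest levels of the scarcest members.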

Other observations

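The library labelled pulled of animal 9 matched an entry library that the rule had used, so differences of the members from it are not given. ENSBTAG00000046188 stood at 0.659 CPM in that library and at 1.80 CPM in the one labelled pulled of animal 12, and ENSBTAG00000037578 at 0.988 and 3.99 CPM. Apart from direct comparisons with them, both libraries entered only the alternatives with all 24 animals or all 72 libraries, and the scaling of animals 9 and 12. In animal 12, whose library labelled pulled matched no other, close-out was higher than it in 50 of the 62 members, where 53.3% of all tested genes were higher, with a median member difference of 0.98. The animal behind that library is not known, so this may compare different animals.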
